A study of Mus musculus with 6 samples.

Results

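Transcripts of 29 mouse genes of cholesterol synthesis, its control by sterol regulatory element binding proteins (SREBPs) and sterol transport were compared in an ovarian cancer cell line with and without MNRR1. The genes were chosen by name from the pathway, with earlier results of these data known. All 29 were found among the 49315 genes of the count table. RNA was sequenced from TKO (Triple Knockout) mouse ovarian cancer cells of 2 genotypes, with 3 libraries labelled MNRR1 KO and 3 labelled Wild Type (WT). MNRR1 is the product of Chchd2, a protein of mitochondria and nucleus. Both genotypes carry the background that gives the TKO line its name, and the labels do not say which genes that background lacks. The sample descriptions give every KO library the same clone name, so the KO group is 1 clone, and an effect of MNRR1 loss and a property of that clone cannot be told apart. The comparison asks how transcript levels differ between the 2 genotypes.

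Cells make cholesterol from acetyl-CoA. The early enzymes build mevalonate and then isoprenoid units, which are joined into squalene, and the late enzymes close squalene into the first sterol and trim it to cholesterol. When membranes of the endoplasmic reticulum hold little sterol, the escort protein SCAP carries SREBPs to the Golgi, where proteases release a fragment that activates genes of the pathway. INSIG proteins hold SCAP back when sterol is plentiful. Oxysterols activate the liver X receptors (LXRs), which switch on genes of sterol export.

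Total counts ran from 33226463 to 40983999 per library. Chchd2 averaged 17.1 ± 0.499 CPM in the KO and 352 ± 13.7 CPM in the WT libraries (SD, n = 3 each), where CPM is a gene's count scaled to a common library size with edgeR's TMM factors. The labelled ovarian identity was checked with 10 markers. Wt1 averaged 677 CPM in the KO and 719 CPM in the WT libraries, Krt8 283 and 480, Muc16 414 and 301 and Msln 108 and 281 CPM, while Pax8 (0.0259 and 0.313 CPM) and Cdh1 (0.475 and 0.581 CPM) were near 0. The 10 markers summed to 2251 to 2381 CPM in the KO and 2776 to 2931 CPM in the WT libraries. Of 11 markers of immune, endothelial, red blood and liver cells, Cd3e had no count in the 6 libraries and Ptprc at most 9 counts in 1 library. Their summed level was 73.4 to 80.7 CPM in KO and 94.5 to 202 CPM in WT libraries, most of it Alb, and its part in the results was not tested. In bulk RNA, fewer cells expressing a gene and less RNA per cell cannot be told apart.

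Cholesterol genes were mostly higher in the KO clone. Of the 29 genes, 22 rose, 1 fell and 6 were not called at the 0.05 threshold, applied to p-values of the quasi-likelihood test in edgeR after Benjamini-Hochberg adjustment across 16033 genes. Among all tested genes 27.8% were called higher and 27.8% lower, so the share of risen genes here, 75.9%, lies above the background and the share of fallen genes, 3.45%, below it. The genes were chosen with earlier results of these data known, so this contrast is a description and not a test. Every KO library lay above every WT library for the same number of genes, 22, and below for 1, against 32.1% and 31.9% of all tested genes. The median log2 ratio of KO over WT was 0.53 over the 29 genes and 0.01 over all tested genes. With scaling by library totals the all-gene median moved to 0.13 and the calls to 5771 higher and 3294 lower genes, and the cholesterol genes to 25 higher and 1 lower, so small ratios below are relative to TMM scaling. All 29 genes passed the filter on low counts, and the 22 risen genes kept their direction and their call in each of 15 other fits.

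**Figure D1:**
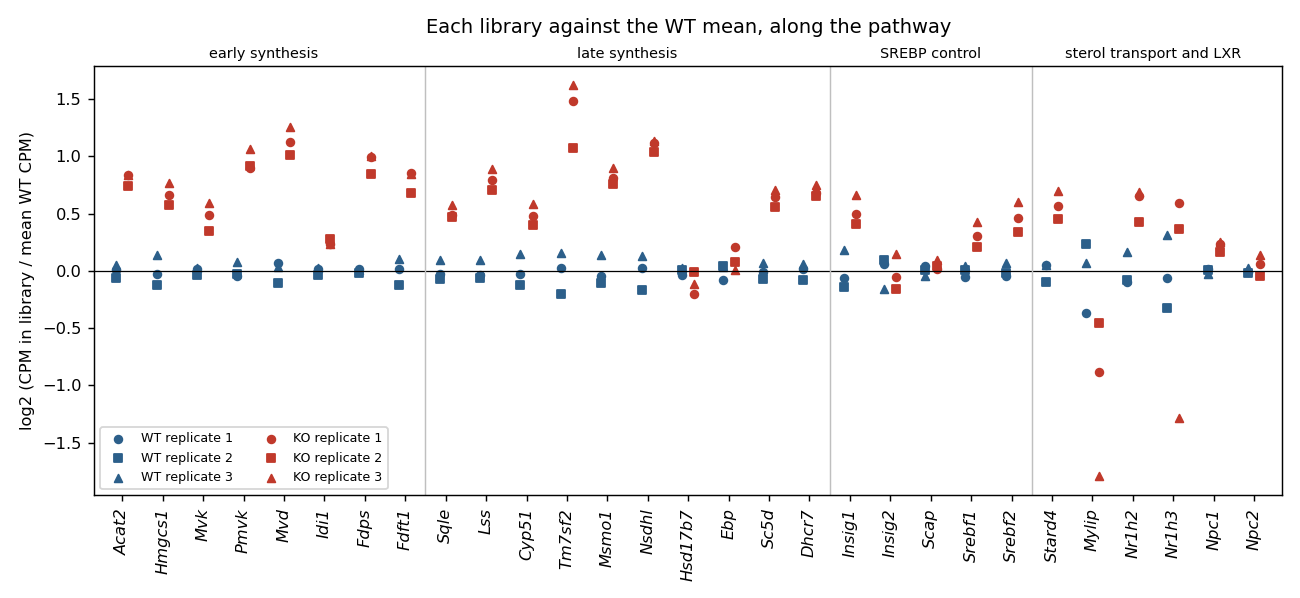
Each point is 1 library: the log2 ratio of its TMM-scaled CPM to the mean of the 3 WT libraries, with genes in pathway order. For the 22 genes that rose, the 3 KO points (red) lie above the 3 WT points (blue), whereas Mylip lies below and Hsd17b7, Ebp, Insig2, Scap, Nr1h3 and Npc2 overlap.

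Promoter sequence is shown first because so many of these genes moved together. RefSeq windows from 250 bases before to 50 after a gene's start (build GRCm38.p6) were found for 24 of the genes, as 33 windows, and 5 genes were not in the table: Fdps, Fdft1, Sqle, Stard4 and Npc1. Each window was searched on both strands for TCACNCCAC, a form of the site that SREBPs bind, for CCAAT, the box of the SREBP partner NF-Y, and for GGGCGG, the GC box of Sp1. The SREBP site was found in 1 gene, Hmgcs1, which is 4.17% of the genes searched against 1.44% of all 27025 genes in the table. A shorter form of 8 letters, TCACNCCA, which the 9-letter site contains, was added after that search. It was found in Hmgcs1, Msmo1 and Srebf2, 12.5% of the genes searched against 4.97% of all genes. All 3 rose, but the number is too small to set against the genes that did not.

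In the stretches below, capitals mark the shorter SREBP site and each NF-Y box (CCAAT, or ATTGG where the box lies on the other strand). Each is read 5′ to 3′ toward the gene and ends before the start. The site begins 137 bases before the start of Hmgcs1, 177 before that of Msmo1 and 162 before that of Srebf2. The Hmgcs1 stretch is chr13:119690102-119690322 on the plus strand, the Msmo1 stretch chr8:64733617-64733767 on the minus strand, and the Srebf2 stretch chr15:82147095-82147150 on the plus strand.
Hmgcs1: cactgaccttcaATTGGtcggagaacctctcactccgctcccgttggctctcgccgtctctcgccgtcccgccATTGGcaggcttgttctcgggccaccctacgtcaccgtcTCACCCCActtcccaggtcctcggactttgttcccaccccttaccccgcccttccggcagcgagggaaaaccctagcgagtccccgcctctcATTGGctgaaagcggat
Msmo1: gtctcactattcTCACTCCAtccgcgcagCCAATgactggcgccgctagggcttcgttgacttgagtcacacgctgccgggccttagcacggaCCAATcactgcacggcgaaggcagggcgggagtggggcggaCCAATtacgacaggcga
Srebf2: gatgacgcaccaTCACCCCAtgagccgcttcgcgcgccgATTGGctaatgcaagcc

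NF-Y boxes were common. At least 1 was found in 20 of the 24 genes, 83.3%, against 41.1% of all genes, and a GC box in 21 genes, 87.5%, against 38.2%. All genes here are the 27025 with a window, not only the 16033 tested in these cells. The share among tested genes was not taken. Both kinds were also found in genes that did not rise. The NF-Y box was present in 15 of 17 risen genes and in 5 of the other 7, and the GC box in 15 and 6. Mvk had 5 NF-Y boxes in its window, the most of these genes. A match describes letters in a window and is not a bound site. Only these exact letters were searched, so a window without a match says nothing of other forms of a site. It also says nothing of the factor elsewhere in the gene.

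**Figure D2:**
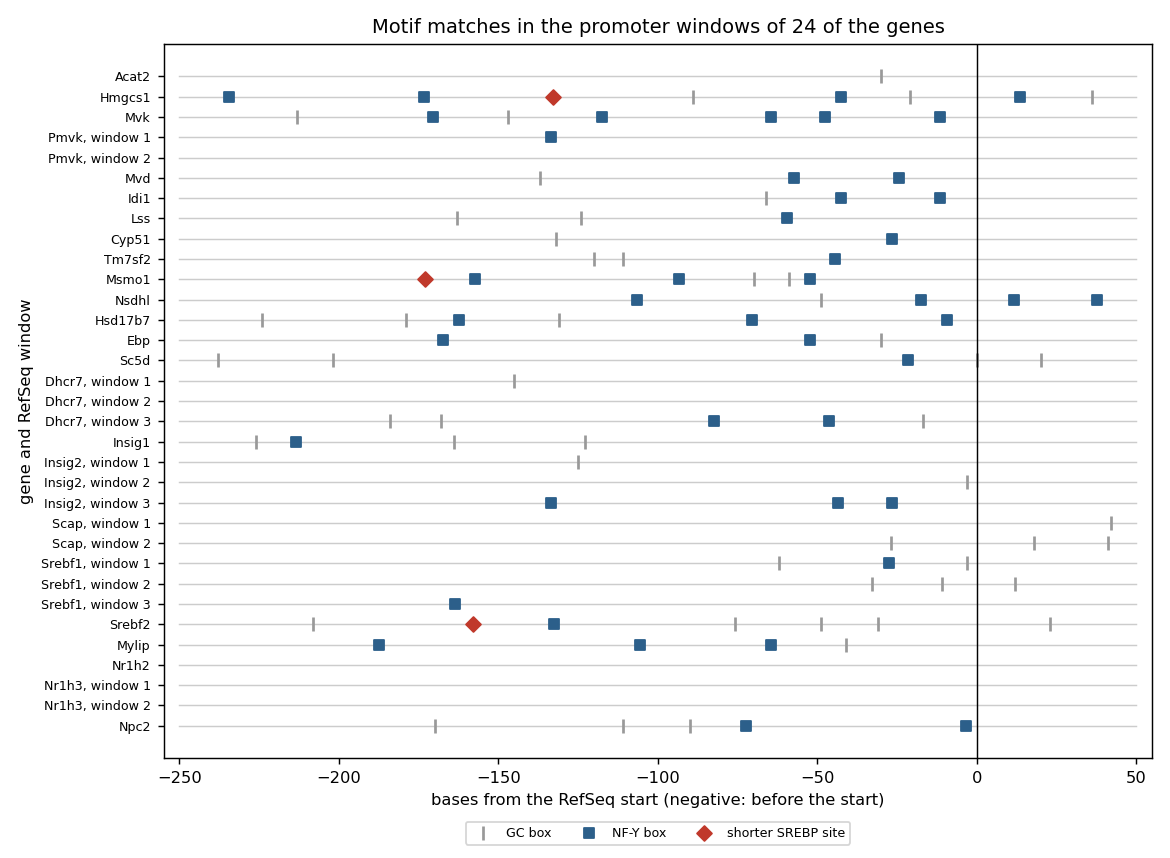
Positions of motif matches in the 33 RefSeq windows of 24 genes, as bases from the start (x axis), with 1 line per window (y axis). NF-Y boxes (blue) lie in windows of 20 genes and GC boxes (grey) in windows of 21, and the shorter SREBP site (red) in those of Hmgcs1, Msmo1 and Srebf2.

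All 8 early enzymes rose, where 27.8% of all tested genes did. Their summed level was 1361 to 1521 CPM in KO and 816 to 917 CPM in WT libraries, a ratio of 1.67, and their log2 ratios ran from 0.25 to 1.13 with a median of 0.80. Acat2, the thiolase that joins acetyl-CoA units, was at 160, 150 and 161 CPM in KO and 90.7, 86.0 and 93.4 CPM in WT replicates 1 to 3, a log2 ratio of 0.81. Its close relative Acat3, 97.7% identical over 1477 bases of transcript, had 61 to 78 counts in KO and 64 to 81 in WT libraries. Hmgcs1, which makes HMG-CoA, was at 536, 507 and 580 CPM in KO and at 334, 311 and 374 CPM in WT replicates 1 to 3. The genotypes did not overlap, and the log2 ratio was 0.67 (SE 0.07, adjusted p = 2.91e-05).

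The 3 enzymes that turn mevalonate into an isoprenoid unit rose by different amounts. Mvk, mevalonate kinase, rose by 0.48 (95% interval 0.33 to 0.63) on the log2 scale and Pmvk, the kinase after it, by 0.96 (0.81 to 1.11). Mvd, the decarboxylase that ends this stretch (chromosome 8, 122433601 to 122443422, minus strand, GRCm38), was at 101, 93.3 and 111 CPM in KO and 48.5, 43.1 and 47.6 CPM in WT replicates 1 to 3. The lowest KO library lay well above the highest WT library, and the log2 ratio was 1.13 (SE 0.07, adjusted p = 9.80e-07). The interval of Mvk lies below those of Pmvk and Mvd, although the difference between genes was not tested.

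Idi1, the isomerase of isoprenoid units, rose least among the enzymes that passed. It was at 105, 108 and 105 CPM in KO and 89.7, 86.8 and 90.2 CPM in WT replicates 1 to 3, a log2 ratio of 0.25 (SE 0.05, adjusted p = 0.00130). The spread within each genotype was small and the genotypes did not overlap. A processed pseudogene on chromosome 2, identical to Idi1 over 684 bases, had 19 to 35 counts per library.

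Fdps, which builds farnesyl diphosphate, was at 254, 229 and 256 CPM in KO and 129, 126 and 128 CPM in WT replicates 1 to 3. The log2 ratio was 0.95 (SE 0.06, adjusted p = 4.22e-07), and the KO libraries were all well clear of the WT range. One of its pseudogenes, Gm3571, had 34 to 63 counts in KO and 14 to 18 in WT libraries, and the sharing of reads between the 2 was not tested. Of the exon length of Fdps 26.7% is shared with Gm43738 on the same strand, which had 1 to 2 counts in KO and 0 to 4 in WT libraries. The part of that overlap in the level of Fdps was not tested. Fdft1, squalene synthase and the first enzyme committed to sterols, rose by 0.80 on the log2 scale, from 99.7 ± 7.92 to 173 ± 11.5 CPM (SD, n = 3 each). Of its exon length 18.3% overlaps Ctsb on the opposite strand, and Ctsb had 7447 to 8843 counts in KO and 8612 to 10145 in WT libraries.

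Late enzymes rose too, 80.0% of them against 27.8% of all tested genes, with 2 exceptions among 10. On the log2 scale 8 rose by 0.49 to 1.40, 0 fell, and Hsd17b7 and Ebp did not pass. At an unadjusted p under 0.05 edgeR placed 0 of the 10 lower, and DESeq2 and limma voom called 0 lower as well. The summed level of the late enzymes was 1934 to 2117 CPM in KO and 1257 to 1433 CPM in WT libraries, a ratio of 1.51. Of the 18 enzymes 3 rose at least 2-fold, Tm7sf2, Mvd and Nsdhl, which is 3 of all 29 genes where 8.1% of tested genes did so.

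Sqle, squalene epoxidase, rose from 258 ± 16.1 to 368 ± 15.1 CPM, and Lss, which closes the ring system, from 158 ± 9.32 to 275 ± 17.2 CPM (SD, n = 3 each). Their log2 ratios were 0.51 and 0.80. Cyp51, which removes the first methyl group from lanosterol, was at 482, 456 and 518 CPM in KO and 339, 317 and 382 CPM in WT replicates 1 to 3. KO libraries lay above WT libraries throughout, with a log2 ratio of 0.49 (SE 0.07, adjusted p = 2.36e-04).

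Tm7sf2 (chromosome 19, 6062821 to 6068373, minus strand, GRCm38), a sterol reductase, had the greatest ratio of the 29 genes and the lowest level of the enzymes. It was at 7.21, 5.43 and 7.94 CPM in KO and 2.63, 2.24 and 2.87 CPM in WT replicates 1 to 3, from 221 to 308 counts in KO and 76 to 114 in WT. The log2 ratio was 1.40 (SE 0.17, adjusted p = 6.14e-05), a fold of 2.65. It shares 532 bases of exon with Vps51 on the same strand, which had 984 to 1239 counts in KO and 648 to 818 in WT libraries, and the part of that overlap in the result was not tested. Lbr encodes a second reductase of the same step and was looked up after the value of Tm7sf2 was seen. It was at 209 ± 9.99 CPM in the KO and 233 ± 4.20 CPM in the WT libraries (SD, n = 3 each; edgeR adjusted p = 0.0259). That call was lost without KO replicate 1 or 3 or WT replicate 1 or 2, at adjusted p of 0.113, 0.0610, 0.101 and 0.0778, and with upper quartiles (0.103) or library totals (0.528), where its log2 ratio of -0.15 moved to -0.10 and -0.03.

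The 3 enzymes that remove the remaining methyl groups together did not all pass. Msmo1, the oxidase, was at 316, 305 and 335 CPM in KO and 175, 167 and 198 CPM in WT replicates 1 to 3, a log2 ratio of 0.82 (SE 0.07, adjusted p = 4.40e-06). Nsdhl, the decarboxylating dehydrogenase (chromosome X, 72918557 to 72958514, plus strand, GRCm38), was at 96.5, 91.6 and 97.9 CPM in KO and 45.3, 39.6 and 48.8 CPM in WT, a log2 ratio of 1.10 (SE 0.07, adjusted p = 1.26e-06). Hsd17b7, the reductase that completes the cycle, was at 88.5, 101 and 93.9 CPM in KO and 99.4, 102 and 103 CPM in WT. The genotypes of Hsd17b7 overlapped, and its log2 ratio of -0.10 (95% interval -0.23 to 0.03) did not pass (adjusted p = 0.155). Without KO replicate 2 it passed as lower, at -0.16 (adjusted p = 0.00964), and with library totals it turned to 0.02.

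Ebp, which shifts a ring double bond, averaged 22.3 ± 1.61 CPM in the KO and 20.8 ± 0.967 CPM in the WT libraries (SD, n = 3 each). The ranges overlapped, and the log2 ratio of 0.10 (95% interval -0.08 to 0.28) did not pass, except with library totals (0.22, adjusted p = 0.0416). The 2 enzymes after it rose. Sc5d, a desaturase, rose by 0.63 on the log2 scale, from 104 ± 5.01 to 161 ± 8.19 CPM. Dhcr7, the reductase that makes cholesterol from its direct precursor, rose by 0.69, from 118 ± 5.57 to 190 ± 6.20 CPM (SD, n = 3 each).

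**Figure D3:**
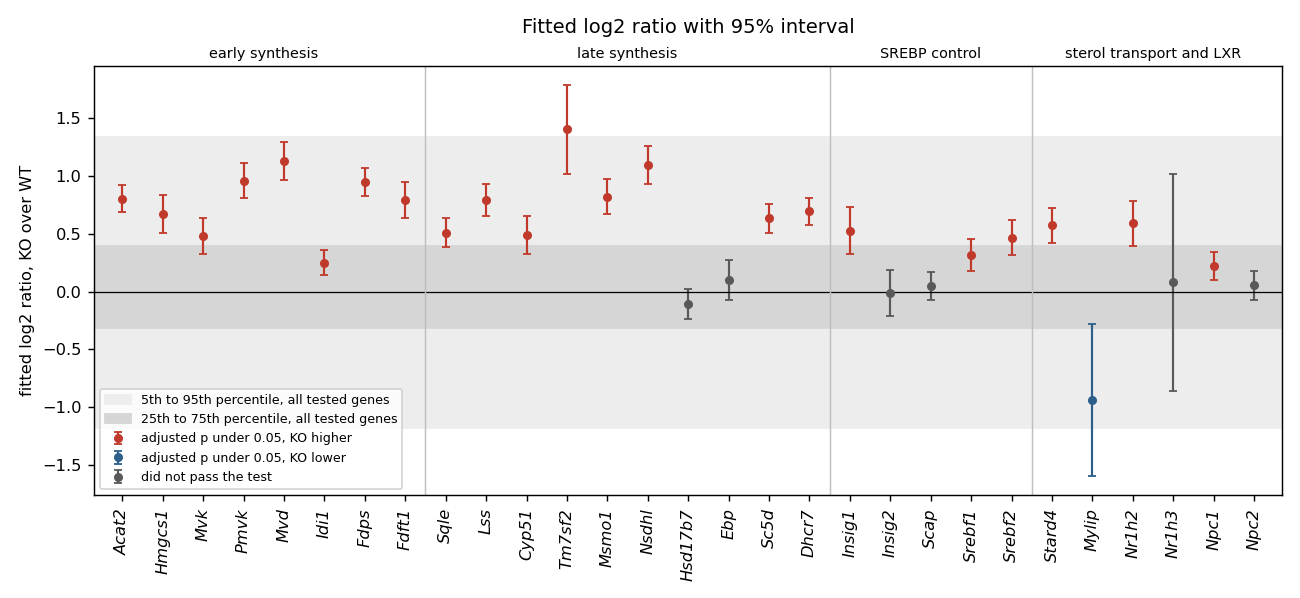
Fitted log2 ratio of KO over WT (y axis) with its 95% interval for each gene in pathway order, over grey bands of the percentiles of all 16033 tested genes. Hsd17b7 and Ebp cross 0 between enzymes that rose, and Tm7sf2 at 1.40 lies highest.

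Per length of exon the genes spanned a wide range. In WT libraries Insig1 was highest at 124 ± 14.9 CPM per kb of exon, followed by Hmgcs1 at 97.6 ± 9.17 and Sqle at 93.6 ± 5.82 (SD, n = 3 each). Cyp51, Msmo1 and Fdps followed at 88.1 ± 8.42, 88.1 ± 7.91 and 87.7 ± 1.10 CPM per kb. Within each of the 3 WT libraries Hmgcs1 lay above Sqle, and Sqle above Cyp51 and Msmo1, whereas the order of Cyp51, Msmo1 and Fdps changed between libraries. Mvk, Pmvk, Nsdhl, Hsd17b7 and Sc5d lay between 17.9 and 21.8 CPM per kb in WT. Ebp was at 11.9 CPM per kb and Tm7sf2 at 1.52 CPM per kb, the lowest of the enzymes. In KO libraries Insig1 at 179, Fdps at 169, Msmo1 at 156 and Hmgcs1 at 155 CPM per kb were the highest levels. The length used was that of protein-coding transcripts in the GENCODE basic set, 1453 bases for Fdps, 2044 for Msmo1 and 3482 for Hmgcs1. All annotated exons come to 4208, 6144 and 4594 bases, so the order between genes depends on the length used.

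**Figure D4:**
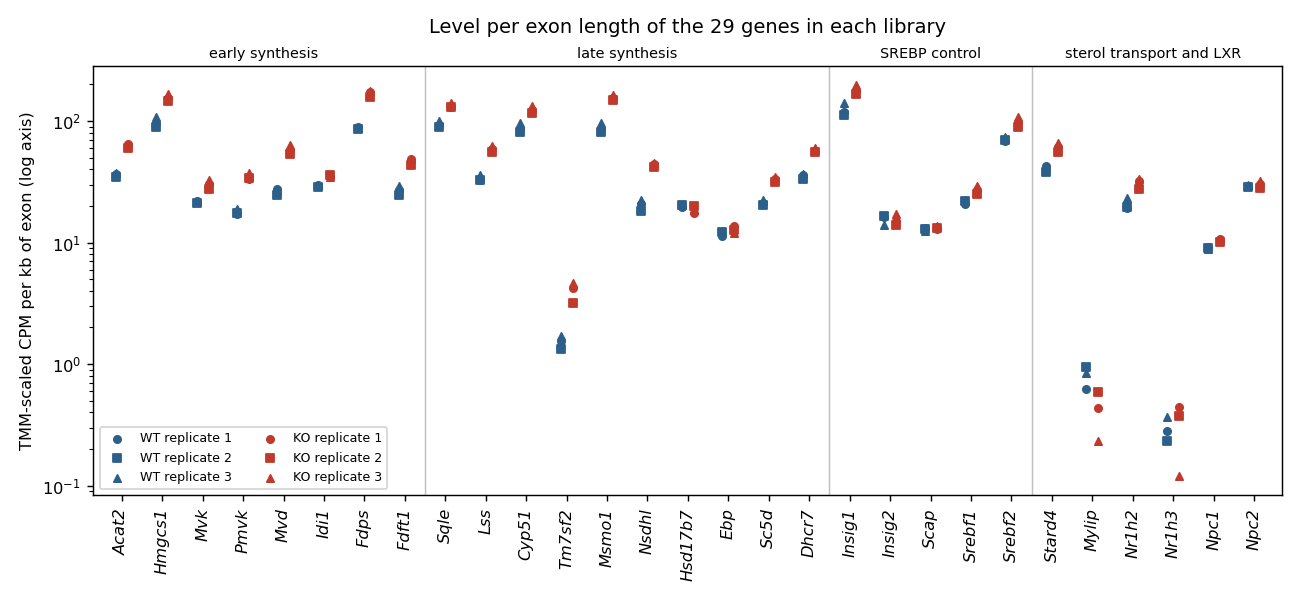
TMM-scaled CPM per kb of exon (log axis) in each of the 6 libraries, with WT in blue and KO in red and a marker for each replicate. Insig1 is highest at means of 124 (WT) and 179 (KO), and Tm7sf2, Mylip and Nr1h3 lie below 5.

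Of the 5 control genes, 3 rose. Srebf2, whose product mainly drives cholesterol genes (chromosome 15, 82147181 to 82205379, plus strand, GRCm38), was at 495, 454 and 544 CPM in KO and 349, 354 and 377 CPM in WT replicates 1 to 3. The lowest KO library was above the highest WT library, with a log2 ratio of 0.47 (SE 0.07, adjusted p = 1.82e-04). Srebf1, whose product mainly drives fatty acid genes, was at 115, 108 and 125 CPM in KO and 89.9, 93.9 and 95.9 CPM in WT, a log2 ratio of 0.32 (SE 0.06, adjusted p = 0.00130). Counts per gene cover all exons, so the 2 promoter forms of Srebf1 were not separated. Scap, the escort, was at 56.1 ± 1.58 CPM in the KO and 54.3 ± 1.60 CPM in the WT libraries (SD, n = 3 each), and its log2 ratio of 0.05 (95% interval -0.07 to 0.17) passed only with library totals (0.17, adjusted p = 0.0215).

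Of the 2 INSIG genes, Insig1 rose and Insig2 was not called. Insig1, itself a target of SREBPs, was at 473, 446 and 532 CPM in KO and 322, 304 and 380 CPM in WT replicates 1 to 3, a log2 ratio of 0.53 (SE 0.09, adjusted p = 6.46e-04). Insig2 was at 44.3, 41.4 and 51.0 CPM in KO and 48.0, 49.1 and 41.2 CPM in WT, with overlapping ranges. Its log2 ratio of -0.02 (95% interval -0.21 to 0.18) did not pass, and its sign turned under 6 of the other fits, scaling by upper quartiles and library totals among them. The intervals of Insig1 (0.33 to 0.73) and Insig2 do not meet, although the difference between the genes was not tested.

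Genes of sterol transport and of the LXR arm were mixed, with 3 of 6 higher and 1 lower. Stard4, a carrier that moves sterol between membranes, was at 315, 291 and 345 CPM in KO and 220, 199 and 220 CPM in WT replicates 1 to 3, a log2 ratio of 0.57 (SE 0.07, adjusted p = 5.14e-05). Npc1 and Npc2 hand cholesterol out of lysosomes. Npc1 was at 55.6, 52.9 and 56.3 CPM in KO and 47.8, 47.4 and 46.4 CPM in WT, which did not overlap, and its log2 ratio of 0.22 (SE 0.06, adjusted p = 0.00605) moved to 0.34 with library totals. Npc2 was at 99.9 ± 6.57 CPM in the KO and 96.3 ± 1.71 CPM in the WT libraries (SD, n = 3 each), and its log2 ratio of 0.05 (95% interval -0.08 to 0.18) passed only with library totals (0.17, adjusted p = 0.0382).

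The LXR genes differed in level. Nr1h2, the widely expressed LXR beta, was at 64.8, 55.4 and 66.4 CPM in KO and 38.6, 39.0 and 46.2 CPM in WT replicates 1 to 3, a log2 ratio of 0.59 (SE 0.09, adjusted p = 2.33e-04). Nr1h3, LXR alpha, had 10 to 33 counts in KO and 17 to 31 in WT libraries. At those counts and that spread its log2 ratio of 0.08 has a 95% interval of -0.86 to 1.02, so no difference was detectable, and the sign turned in limma voom (-0.10) and without KO replicate 1, KO replicate 2 or WT replicate 2.

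Mylip was the gene that fell. It encodes IDOL, a ubiquitin ligase induced by LXRs that sends lipoprotein receptors to degradation. The KO libraries held 49, 77 and 29 counts and the WT libraries 70, 103 and 108, in replicate order, which is 1.40, 1.89 and 0.748 CPM against 2.00, 3.04 and 2.72 CPM. The ranges came close without overlapping, and the log2 ratio was -0.94 (SE 0.30, adjusted p = 0.0203). Leaving out KO replicate 1 (adjusted p = 0.0554), WT replicate 2 (0.0786) or 3 (0.0598) ended the call, in a range of 1.97e-04 to 0.0786 over the other fits.

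Neighbouring genes were grouped in 6 lists, read beside the 27.8% of all tested genes called higher and the 27.8% called lower. Of 15 tested lipogenic targets of SREBP-1, 14 rose (93.3%) and 1 fell (6.67%), with a median log2 ratio of 0.57. Scd1 and Scd2, which desaturate fatty acids, rose by 1.31 and 0.93 on the log2 scale, the elongase gene Elovl6 by 0.95 and the desaturase gene Fads2 by 0.91. Scd2 was the most abundant of the 4, at 2876 ± 152 CPM in the KO and 1509 ± 126 CPM in the WT libraries (SD, n = 3 each).

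Genes that use isoprenoids for other products went the other way. Of 17 tested, 1 rose (5.88%) and 10 fell (58.8%), against 27.8% each way among all tested genes. The median log2 ratio was -0.20, and library totals gave 2 higher and 7 lower. Coq2 and Pdss1, both of ubiquinone synthesis, were at -0.90 and -0.84 on the log2 scale. Pdss1 was at 25.7, 32.7 and 23.7 CPM in KO and 48.2, 52.0 and 47.3 CPM in WT replicates 1 to 3, and Coq2 at 10.4, 11.2 and 11.3 CPM and 20.5, 21.7 and 19.0 CPM. Neither gene's genotypes overlapped. Rabggtb, a subunit of the enzyme that prenylates Rab proteins, was at -0.61, and Nus1, a subunit of the enzyme that makes dolichol precursors, at -0.50. Fdps, which supplies the shared precursor, rose by 0.95 beside them. The partner subunits of Nus1, Rabggtb and Pdss1 were not called lower. Dhdds, the partner of Nus1, was the gene of this list that rose, at 0.34 (edgeR adjusted p = 0.00219). Rabggta, the partner of Rabggtb, was at -0.15 (0.140) and Pdss2, the partner of Pdss1, at -0.03 (0.809), and neither passed.

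Of 16 genes of SREBP processing and sterol-regulated degradation, 3 rose (18.8%) and 7 fell (43.8%), with a median log2 ratio of -0.12. The shares among all tested genes were 27.8% each way. With upper quartiles 5 rose, and library totals gave 6 higher and 3 lower, so the direction of this list depends on scaling. Without KO replicate 1, 4 were lower, and without KO replicate 3, 5 were higher. Mbtps1, the protease that first cuts SREBPs in the Golgi, rose by 0.33, from 216 ± 3.80 to 271 ± 7.97 CPM (SD, n = 3 each). Mbtps2, the protease of the second cut, went the other way, from 57.5 ± 0.816 to 45.9 ± 1.53 CPM (SD, n = 3 each). Its log2 ratio was -0.32 (edgeR adjusted p = 5.30e-04), and the genotypes did not overlap. Paqr3 rose by 0.61 on the log2 scale, and Erlin1, a membrane protein of the degradation machinery, was at -0.42.

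Of 23 tested genes of sterol uptake, storage and transport, 9 were higher (39.1%) and 4 lower (17.4%), with a median log2 ratio of 0.13. The shares among all tested genes were 27.8% each way. Gramd1b and Gramd1c, sterol carriers at contacts with the plasma membrane, rose by 2.05 and 1.28 on the log2 scale, and the lipoprotein receptor gene Vldlr by 1.63. Cav1, the coat protein of caveolae, fell from 34.3 ± 1.61 to 4.86 ± 2.00 CPM (SD, n = 3 each), a log2 ratio of -2.81.

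Among 5 tested LXR targets, 2 rose (40.0%) and 2 fell (40.0%), against 27.8% each way among all tested genes. Lpcat3, a phospholipid remodelling enzyme, rose by 0.33, while Arl4c was at -0.85 and Pltp at -0.46. The call of Pltp was lost in 7 of the other fits, by omission of KO replicate 2 (adjusted p = 0.0859) or of WT replicate 1 (0.0656), 2 (0.0708) or 3 (0.0827), and with DESeq2 (0.0501), upper quartiles (0.0536) or library totals (0.115).

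Of 7 tested oxysterol and bile acid enzymes, 3 rose (42.9%) and 1 fell (14.3%), against 27.8% each way among all tested genes. Ch25h, which makes an oxysterol that restrains SREBP processing, was at 0.172, 0.246 and 0.103 CPM in KO and 1.57, 1.45 and 1.21 CPM in WT replicates 1 to 3. All WT libraries were above all KO libraries, at a low level, and the log2 ratio was -2.99 (SE 0.35, adjusted p = 3.79e-05). Cyp39a1 and Hsd3b7, both below 6 CPM, rose by 1.36 and 1.33. Cyp46a1 rose by 0.56 (adjusted p = 0.0375), a call lost in limma voom (0.0669) and on leaving out KO replicate 1 (0.101) or 3 (0.143), or WT replicate 1 (0.141), 2 (0.0855) or 3 (0.0531). Without KO replicate 3 its log2 ratio was 0.35.

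**Figure D5:**
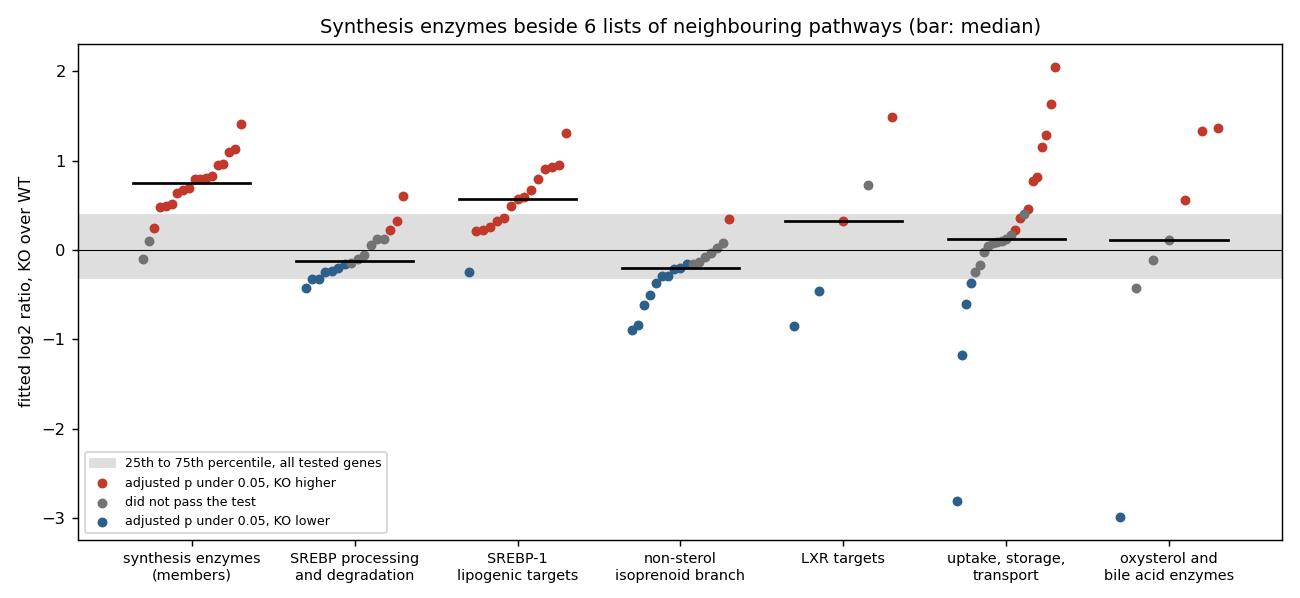
Fitted log2 ratios of KO over WT (y axis) for the 18 synthesis enzymes and 6 neighbouring lists, 1 point per tested gene, with black bars at the medians and a grey band for the 25th to 75th percentile of all tested genes. The enzymes and the lipogenic targets centre on 0.74 and 0.57, whereas the isoprenoid branch centres on -0.20.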

How the data were processed

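The authors deposited 1 table of unnormalized whole-number read counts, with Ensembl genes as lines and 1 column per library. The submitters' processing notes name build GRCm38 and, as tools, STAR 2.5.2b, Subread 1.5.2, Trimmomatic 0.36, bcl2fastq 2.17 and DESeq2. The strand setting and the handling of reads with several matches are, in the sources used here, not given. Names, coordinates and exons came from GENCODE M21 (GRCm38), which matched 49056 of 49315 gene IDs.

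Counts were tested with edgeR 4.0.16 (R 4.3.3) across 16033 genes left by filterByExpr (minimum count 10), with TMM scaling, robust quasi-likelihood dispersions, genotype as the only term and Benjamini-Hochberg adjustment; the threshold was 0.05. Other fits used DESeq2 1.42.0, limma 3.58.1 voom, 3 other scalings, 2 other filters, a non-robust fit, a replicate block and omission of each library. Levels per length used exons of protein-coding transcripts in the GENCODE basic set. Read-sharing genes were sought by exon overlap and with BLAST+ 2.17.0 (95% identity over at least 500 bases). Nothing in the labels says that replicates were separate cultures, so each p-value reflects the spread among 6 libraries alone, and that spread may be technical. An exact permutation test of 3 against 3 cannot go below 0.1 and was not used.

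The genes and lists were chosen with earlier results of these data known. Named genes were the 29 members, Chchd2, and from each neighbouring list up to 4 called genes with the greatest change and a mean of 1 CPM or more in the higher genotype. One of the 139 list entries was matched by a synonym. Of the genes that rule names, 1 is not reported here. Lbr, Dhdds, Rabggta, Pdss2 and Mbtps2 were added after values were seen.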

Additional observations from a re-analysis of the deposited data

How the results depend on the processing

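The count of 22 higher cholesterol genes ran from 22 to 25 over the 15 other fits, and the median log2 ratio from 0.47 to 0.65. The count of lower genes, 1, ran from 0 to 2 when single libraries were left out (late enzymes 0 to 1, transport and LXR genes 0 to 1). For SREBP processing genes the omissions gave 2 to 5 higher and 4 to 7 lower, upper quartiles 5 higher, and library totals 6 higher and 3 lower. The isoprenoid list had 2 higher genes with library totals. LXR targets had 1 higher with a filter of 1 CPM, and 1 lower with upper quartiles, library totals or DESeq2, and 1 to 2 lower in the omissions. Signs turned for Hsd17b7 (0.0151 with library totals), Insig2 (0.0369 with upper quartiles, 0.11 with library totals, and -0.10 to 0.0501 in the omissions) and Nr1h3 (-0.10 in limma voom, and -0.23 to 0.47 in the omissions); the cause was not tested. The SREBP site was found in 3 genes in its shorter form, against 1.

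With the replicate number as a block, 22 cholesterol genes were higher and 1 lower, and 4412 and 4466 of all genes. Deviations of same-numbered libraries correlated across genes at -0.0802, 0.0644 and 0.0584. Pairs of different numbers ran from -0.131 to 0.114, a range that holds the same-numbered values. The main fit did not use the pairing. The 22 risen genes mostly kept a common replicate order in both genotypes (given with the other observations). The sample descriptions number the libraries as sets, with the same numbers in both genotypes. Whether same-numbered libraries share a batch was not tested. Mylip (29 to 108 counts per library) and Nr1h3 (10 to 33) had low counts and a wide spread between libraries.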

Other observations

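The 22 genes that rose mostly kept a common order among libraries, and the same replicate numbers were most often lowest and highest in both genotypes. In KO libraries replicate 2 was the lowest for 20 of the 22 and replicate 3 the highest for 20, while among all 4463 genes that rose replicate 2 was lowest for 3190 and replicate 3 highest for 2678. In WT libraries replicate 2 was the lowest for 17 of the 22 and replicate 3 the highest for 19, against 1635 and 1870 of the 4463. The median log2 ratio of the 29 genes to the WT mean was, in replicate order, 0.50, 0.43 and 0.67 for the KO libraries and -0.01, -0.07 and 0.07 for the WT libraries, where the median over all tested genes lay between -0.01 and 0.01. These values are a description, and what the libraries of 1 genotype differed in was not tested.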
